A study of Mus musculus with 8 samples.

Results

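Netrins, slits and class 3 semaphorins are secreted guidance cues, and 10 genes of these families and of the SLIT receptors were followed here: the netrin genes Ntn1 and Ntn4, the slit genes Slit2 and Slit3, the receptor genes Robo1 and Robo2, and the semaphorin genes Sema3a, Sema3c, Sema3d and Sema3e. They were chosen by gene symbol out of the 53801 genes of the count table, and 10 of 10 were found. RNA-seq read counts came from 8 libraries of stromal cells sorted from the small intestine of mice. The cells carried YFP and lacked CD45 (leukocytes) and CD31 (endothelium), and the animals were named LTβRfloxPDGFRα/YFP, a line with a floxed lymphotoxin β receptor gene. Sorting by PDGFRα, a growth factor receptor of fibroblasts, gave the groups YFP+PDGFRα- and YFP+PDGFRα+, with 4 libraries each, numbered 1 to 4. Every library carried the floxed allele and YFP, no treatment is named, and the labels used here give neither the age of the mice, nor which allele drives YFP or a recombinase, nor whether a library came from 1 mouse or a pool. The p-values therefore rest on how far these libraries differ from each other, part of which may be technical.

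In the nervous system netrins attract or repel growing axons through the receptors DCC, neogenin and the UNC5 family, slits act through ROBO receptors, and class 3 semaphorins act through neuropilins and plexins. The same cues act on cells outside the nervous system. In the gut wall the surroundings of stromal cells include the nerve fibres of the enteric nervous system, blood and lymph vessels, and the epithelium on its basement membrane. Netrin-4 binds laminin directly and belongs to the matrix as much as to the guidance cues. Semaphorin 3E differs from its relatives in that it binds plexin D1 without a neuropilin and repels endothelial cells.

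The data show a mixed picture among these genes. The netrin gene Ntn4 was 2.47-fold lower in PDGFRα+ than in PDGFRα- cells and was the only one of the 10 past the threshold of adjusted p = 0.05 in the fit with group as the only term (edgeR quasi-likelihood test, adjusted over 15643 genes). When the replicate number was added as a block, the receptor gene Robo2 was called 1.54-fold higher, and Ntn4 was called lower. The scarce gene Sema3e was called lower in that fit too, but it entered the test through the PDGFRα- libraries, where it is high, so its call is given as a description. The genes with the most RNA for their length, Slit3 and Ntn1, passed neither test. Without the block 0 of 10 genes were called higher, against 0.192% of all genes tested, and 1 of 10 lower, against 0.0511%. With the block 1 of 10 was called higher, against 1.34%, and 2 of 10 lower, against 0.933%, of which 1 is Sema3e. The authors' deposited table lists 1 of the 10 (Robo2) as higher, against 2.3% of genes with an adjusted p there, and 5 as lower, against 2.52%. The 5 are Ntn4, Slit2, Sema3c, Sema3d and Sema3e. Because of the way Sema3e entered, no count of lower genes that holds it is read as support. The median log2 fold change was -0.50 over the 10 genes and -0.01 over all genes tested (unblocked).

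The window before the start of transcription is shown for Robo2 and Sema3e, the genes called higher and lower with the block that have a RefSeq start (GRCm38.p6) falling on the edge of the gene in GENCODE M21. Each stretch holds the 250 bases before the start, 5′ to 3′ on the gene's strand, at chr16:74411826-74412075 on the minus strand for Robo2 and chr5:14025026-14025275 on the plus strand for Sema3e. Capitals mark matches on either strand to GGGCGG (GC box).
Robo2: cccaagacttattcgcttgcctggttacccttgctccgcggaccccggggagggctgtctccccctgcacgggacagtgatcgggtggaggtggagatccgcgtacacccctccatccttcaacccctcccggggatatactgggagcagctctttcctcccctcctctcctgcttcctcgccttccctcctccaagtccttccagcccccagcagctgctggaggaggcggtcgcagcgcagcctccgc
Sema3e: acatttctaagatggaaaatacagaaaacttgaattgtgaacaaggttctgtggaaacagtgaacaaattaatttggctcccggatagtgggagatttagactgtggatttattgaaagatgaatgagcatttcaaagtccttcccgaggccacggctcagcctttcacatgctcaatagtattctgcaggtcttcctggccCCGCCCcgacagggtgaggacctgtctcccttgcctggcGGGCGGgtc
The Robo2 window held 0 matches and the Sema3e window 2, starting 48 and 9 bases before the start and not overlapping. The other motifs searched on both strands, none found in either window, were the TATA box TATAAA (in 12.4% of 32851 RefSeq windows of this length), the CCAAT box CCAAT (33.8%), the E-box CACGTG (6%), the forkhead motif TGTTTAC (3.2%) and the GLI motif TGGGTGGTC (0.2%). GGGCGG was found in 32.7% of the windows. The Robo2 window held 14 CpG pairs and the Sema3e window 7, with a median of 6 over all windows. Robo2 has 3 RefSeq starts, and the results above are for the window shown. The window at chr16:75092771-75093020 held 4 CpG pairs and 0 motif matches. The window at chr16:75447294-75447543 held 8 CpG pairs and 1 E-box, 18 bases before the start. Ntn4, whose window held 26 CpG pairs and 4 matches to GGGCGG on either strand, with 1 overlap, has 1 RefSeq start. Windows were found for 9 of the 10 genes.

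Levels are given as CPM, read counts scaled to the TMM-adjusted library size, as mean ± SD over 4 libraries. The shallowest library held 12926651 counts and the deepest 35115771. Fibroblast marker genes matched the stromal label, while endothelial markers were also present (below). A set of 6 fibroblast genes summed to between 117870 and 167158 CPM in PDGFRα- and between 87437 and 113023 CPM in PDGFRα+ libraries. The collagen genes Col1a1, Col1a2 and Col3a1 made up most of that sum, and these 3 of the 6 were called lower with the block. Smooth muscle markers (5 genes) summed to 306, 1562, 872 and 1028 CPM in PDGFRα- and 363, 1217, 1011 and 797 CPM in PDGFRα+ libraries. Library 1 was lowest in each group, as for Robo2 and the plexin gene Plxna4 (below), and 0 of the 5 were called with the block. The same held for Robo1 and the neuropilin gene Nrp1 (below), which were not called in either edgeR fit. Within the sum Des was an exception, at 17.6 CPM in PDGFRα+ library 4 and 23.5 CPM in PDGFRα+ library 1. The part of smooth muscle in the values of Robo2, Plxna4, Robo1 and Nrp1 was not tested. RNA of the sort marker, Pdgfra, stood at 652 ± 124 and 597 ± 69.2 CPM, so the group names refer to the sort labels. Markers of 5 enteric glia genes summed to at most 11.3 CPM and those of 5 enteric neuron genes to at most 19.0 CPM, with 5 of 5 at 0 in some library in each list. Markers of endothelium summed to 490 CPM in PDGFRα- library 4 and to between 49.5 and 146 CPM in the other libraries, so that library stood apart. Pecam1, the gene of CD31, stood at 132 CPM there and between 4.63 and 35.2 CPM in the others, although the cells were sorted as lacking CD31. In bulk RNA a smaller share of cells that express a gene and less of its RNA per cell cannot be told apart.

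Netrins. Ntn4 (ENSMUSG00000020019, chromosome 10, 93640681 to 93747207, plus strand, GRCm38) had 62.4, 80.5, 65.2 and 54.6 CPM in PDGFRα- libraries 1 to 4 and 28.2, 27.1, 26.0 and 24.9 CPM in PDGFRα+ libraries 1 to 4. The groups did not overlap, and the PDGFRα+ libraries lay close together while PDGFRα- library 2 was highest. The means were 65.7 ± 10.9 and 26.5 ± 1.42 CPM, a log2 fold change of -1.31 ± 0.19 (SE, 95% interval -1.70 to -0.91, edgeR adjusted p = 0.0111). With the block it was -1.30 ± 0.17 (edgeR adjusted p = 5.63e-04). The unblocked call was lost, by a small margin, without PDGFRα- library 3 or PDGFRα+ library 3 (edgeR adjusted p = 0.0504 and 0.05002), while the log2 fold change stayed between -1.38 and -1.19 over the 8 fits that leave out 1 library.

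Ntn1 (ENSMUSG00000020902, chromosome 11, 68209364 to 68400823, minus strand), which encodes netrin-1, the best studied guidance netrin, had 360, 411, 345 and 467 CPM in PDGFRα- and 396, 474, 396 and 468 CPM in PDGFRα+ libraries. The groups overlapped, and the log2 fold change of 0.13 (95% interval -0.20 to 0.46) did not pass (edgeR adjusted p = 0.970), although each PDGFRα+ library lay above its same-numbered partner. Leaving out 1 library moved it between 0.07 (PDGFRα- library 3) and 0.22 (PDGFRα- library 4). Scaled to exon length, Ntn4 made up 22.0 ± 3.82% of the RNA of the netrin pair in PDGFRα- and 9.39 ± 1.12% in PDGFRα+ libraries. Ntn4 thus moved while Ntn1 stayed the more abundant netrin in each fraction.

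Slits. Slit3 (ENSMUSG00000056427, chromosome 11, 35121224 to 35708507, plus strand) had 1020, 1091, 907 and 896 CPM in PDGFRα- and 1638, 882, 931 and 1139 CPM in PDGFRα+ libraries. PDGFRα+ libraries 1 and 4 exceeded all PDGFRα- libraries and PDGFRα+ library 2 was the lowest of the 8 (log2 fold change 0.23, 95% interval -0.19 to 0.65, edgeR adjusted p = 0.945). Without PDGFRα+ library 1 the value was 0.01, and with the block it was 0.02 without number 1 and 0.36 without number 2. Slit2 (ENSMUSG00000031558, chromosome 5, 47983138 to 48307733, plus strand) had 309, 367, 418 and 480 CPM in PDGFRα- and 278, 121, 236 and 429 CPM in PDGFRα+ libraries. Each PDGFRα+ library lay below the PDGFRα- library of the same number, yet the groups overlapped because PDGFRα+ library 4 exceeded 3 of the PDGFRα- libraries. The estimated log2 fold change of -0.57 ± 0.31 SE did not pass (edgeR adjusted p = 0.837), nor did that of -0.68 ± 0.23 with the block (0.269), and the authors' deposited table gives -0.69 with an adjusted p of 0.00995. The size rested on single libraries, at -0.33 without PDGFRα+ library 2, -0.89 without PDGFRα+ library 4 and, with the block, -0.37 without number 2.

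ROBO receptors. Robo2 (ENSMUSG00000052516, chromosome 16, 73891839 to 74411825, minus strand) had 249, 371, 337 and 382 CPM in PDGFRα- and 453, 557, 526 and 512 CPM in PDGFRα+ libraries. All PDGFRα+ libraries lay above all PDGFRα- libraries, and library 1 was lowest in each group. The means were 335 ± 60.2 and 512 ± 43.4 CPM, a log2 fold change of 0.61 ± 0.17 (SE, edgeR adjusted p = 0.226) without and 0.63 ± 0.11 (0.00711) with the block. The blocked call was lost without number 1 or number 3 (edgeR adjusted p = 0.0542 and 0.0918).

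Robo1 (ENSMUSG00000022883, chromosome 16, 72308306 to 73046095, plus strand), the other ROBO receptor gene followed, had 102, 178, 154 and 209 CPM in PDGFRα- and 150, 163, 208 and 198 CPM in PDGFRα+ libraries. These ranges overlapped (log2 fold change 0.16, 95% interval -0.28 to 0.60, edgeR adjusted p = 0.970), and the difference between the responses of Robo1 and Robo2 was not tested. PDGFRα- library 1 was lowest for Robo1 as it was for Robo2, and leaving out 1 library moved the Robo1 value between 0.0001 (PDGFRα- library 1) and 0.32 (PDGFRα- library 4).

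Class 3 semaphorins. Sema3e (ENSMUSG00000063531, chromosome 5, 14025276 to 14256689, plus strand) was scarce, with raw counts of 37, 58, 150 and 116 in PDGFRα- and 4, 5, 17 and 3 in PDGFRα+ libraries. In CPM these are 1.51, 2.92, 11.7 and 5.83 against 0.115, 0.205, 0.549 and 0.223, so the groups did not overlap, but PDGFRα- libraries 3 and 4 carried most of the counts. The estimate on the log2 scale was -4.29 ± 0.93 (SE, 95% interval -6.28 to -2.30, edgeR adjusted p = 0.0819) without and -4.13 ± 0.89 (0.0214) with the block. The gene passed the filter on low counts through the PDGFRα- libraries. The blocked call held without number 2 (edgeR adjusted p = 0.0144) and was lost without number 1, 3 or 4 (0.0548, 0.295 and 0.0752). Summed markers of 5 leukocyte genes were also highest in PDGFRα- libraries 3 and 4, at 32.0 and 36.8 CPM against 7.05 to 13.8 CPM in the others. Those of 5 enteric glia genes stood at 10.1 and 11.3 CPM against 0 to 6.16 CPM. The 5 enteric neuron genes summed to 3.90 and 19.0 CPM there, against 0.520 to 3.03 CPM. No other marker list was highest in that pair of libraries. In the leukocyte sum Ptprc and Lyz2 were highest there, and Cd3e, Cd79a and Itgam were not. The part of these cell types in the Sema3e result was not tested.

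Sema3c (ENSMUSG00000028780, chromosome 5, 17574281 to 17730268, plus strand), the semaphorin gene of the 4 with the most RNA per exon length, had 309, 298, 277 and 282 CPM in PDGFRα- and 201, 214, 204 and 245 CPM in PDGFRα+ libraries. The groups did not overlap and each was tight, but the difference was small, at 1.35-fold lower (log2 fold change -0.43 ± 0.14 SE), and did not pass in either fit (edgeR adjusted p = 0.371 and 0.0661). It passed in DESeq2 without the block (adjusted p = 0.0471) and in the authors' deposited table (0.00740), where the value equals that of DESeq2 with the block. The summed fibroblast markers given above did not overlap between the groups either, as for Ntn4, Robo2 and Sema3e. Within that sum this held for the collagen genes Col1a1, Col1a2 and Col3a1. Dcn, Lum and Pdgfra overlapped between the groups and were not called with the block. The part of fibroblast markers in these results was not tested.

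Sema3d (ENSMUSG00000040254, chromosome 5, 12383385 to 12588948, plus strand) had 57.0, 53.4, 44.3 and 75.3 CPM in PDGFRα- and 42.5, 13.4, 24.0 and 56.6 CPM in PDGFRα+ libraries. Each PDGFRα+ library lay below its same-numbered partner while the groups overlapped (log2 fold change -0.76 ± 0.38 SE, edgeR adjusted p = 0.774, and -0.92 ± 0.24, 0.0687 with the block). Without PDGFRα+ library 2 the value was -0.49, and with the block and without number 2 it was -0.57. Among the PDGFRα+ libraries Sema3d and Slit2 had the same order, with library 2 lowest, then 3, 1 and 4. Over the 8 libraries their log2 CPM correlated at Pearson r = 0.94, and at 0.90 after the group means were removed. These are the highest values of all pairs of the 10 genes on each measure, and Robo1 and Robo2 reached 0.88 on the latter. This is a description of 8 libraries in 2 groups. Of 5 pericyte genes, the channel gene Kcnj8, picked after its values were seen, had that order too, at 0.901, 4.29, 8.02 and 10.03 CPM in PDGFRα+ libraries 2, 3, 1 and 4. The other 4 did not: Abcc9 and Rgs5 were lowest in PDGFRα+ library 2 but highest in library 1, Notch3 was lowest in library 1, and Cspg4 was highest in library 2. The 5 pericyte genes as a list summed to 826 to 1597 CPM in PDGFRα- and 687 to 1240 CPM in PDGFRα+ libraries, with Cspg4 called higher and Abcc9 lower with the block, and 0 of 5 at 0 in any library. The part of pericytes in the values of Slit2 and Sema3d was not tested.

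Sema3a (ENSMUSG00000028883, chromosome 5, 13125414 to 13602565, plus strand), which encodes a repellent of sensory axons, was near the low end with 2.56, 5.58, 7.49 and 6.98 CPM in PDGFRα- and 3.38, 2.91, 3.07 and 4.68 CPM in PDGFRα+ libraries. PDGFRα- library 1 lay below all PDGFRα+ libraries while the other PDGFRα- libraries lay above them, and the interval of the log2 fold change was wide (-0.69, 95% interval -1.82 to 0.45, edgeR adjusted p = 0.927). With the block it was -0.61, and -0.94 without number 1 and -0.38 without number 3.

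**Figure D1:**
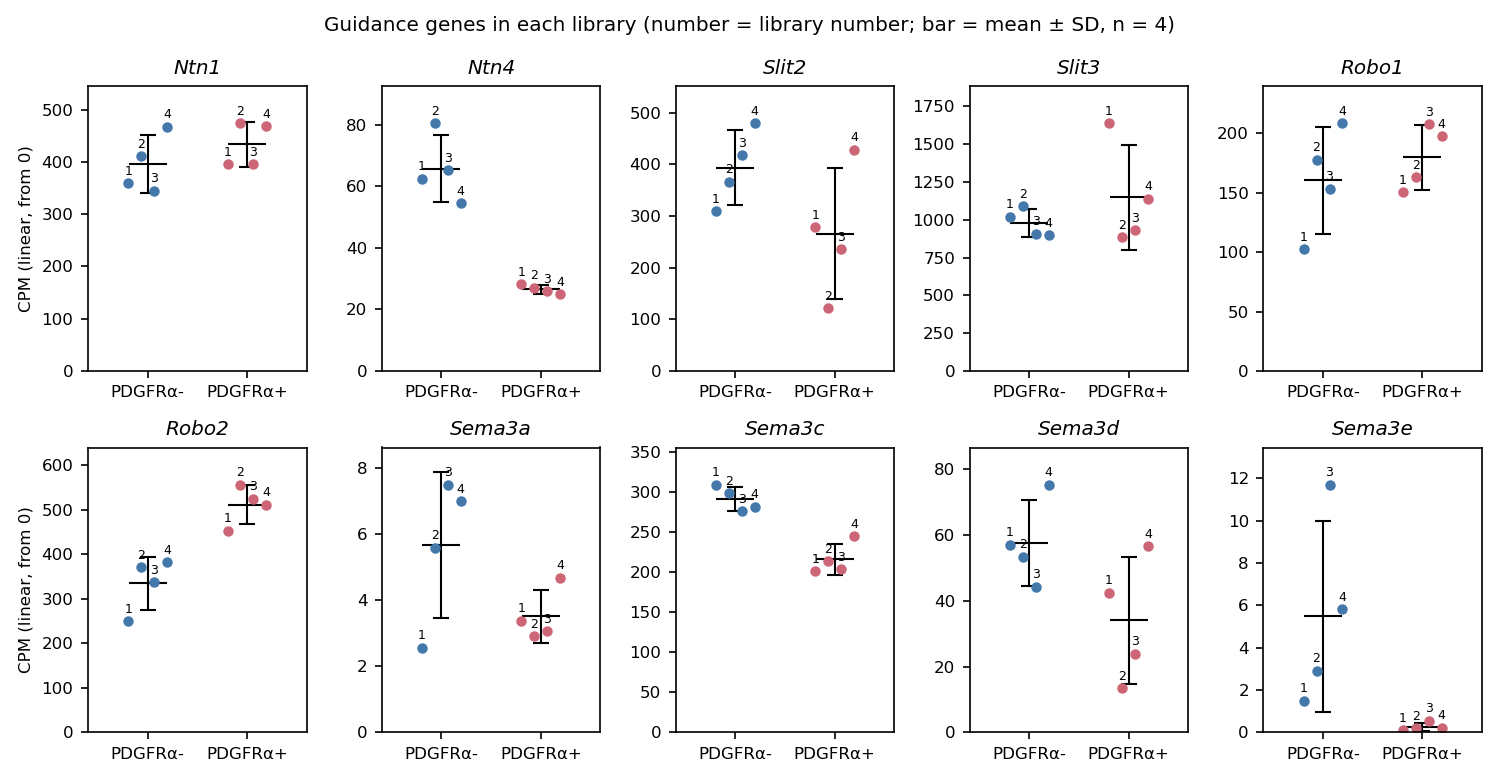
CPM (vertical axis, linear) of the 10 guidance genes in each library, with the library number above each point and a bar for the mean ± SD of 4 libraries. For Ntn4 the PDGFRα+ libraries sit between 24.9 and 28.2 CPM, below all PDGFRα- libraries, for Robo2 they sit above all of them, and for Slit2 and Sema3d the groups overlap.

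Counted by libraries alone, 1 of the 10 genes (Robo2) had all 4 PDGFRα+ libraries above all PDGFRα- libraries, against 2.69% of genes tested, and 3 (Ntn4, Sema3c and Sema3e) had them all below, against 2.36%. Because Sema3e entered the test through the PDGFRα- libraries, where it is high, the count of 3 is given as a description. All 10 genes passed the filter on low counts, and no exon of the 10 overlapped an exon of another gene in GENCODE M21. The 4 semaphorin genes lie on chromosome 5 between 12383385 and 17730268, and the ROBO genes on chromosome 16. The semaphorin genes had log2 fold changes of -0.43 to -4.29, of which 0 passed in the unblocked edgeR fit with the filter on low counts. Unblocked DESeq2 called Sema3c (adjusted p = 0.0471) and Sema3e (3.27e-05), and unblocked edgeR without the filter called Sema3e (0.00506).

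**Figure D2:**
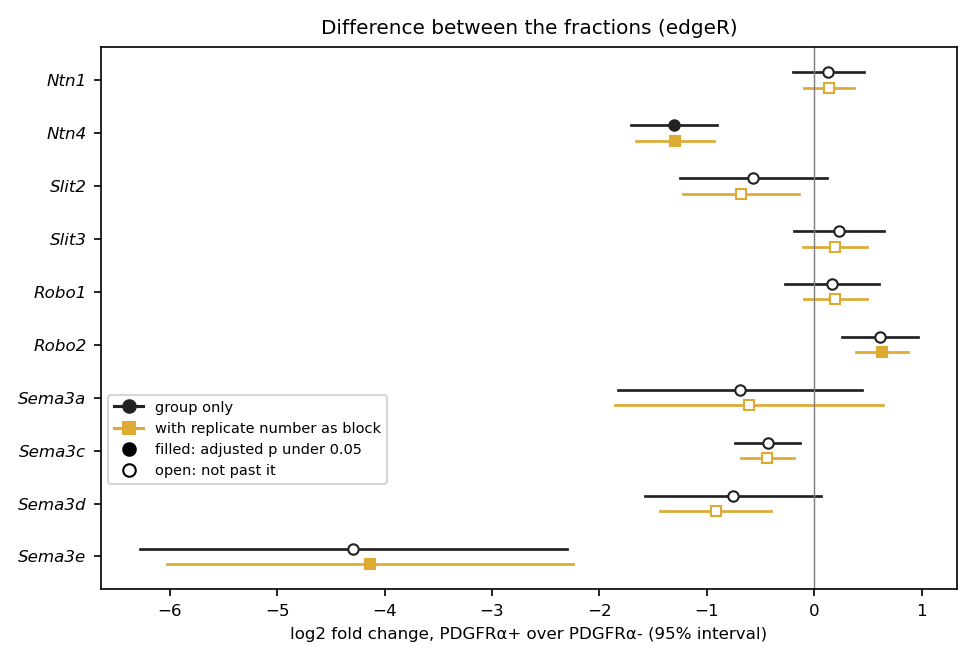
Log2 fold change of PDGFRα+ over PDGFRα- (horizontal axis) with its unadjusted 95% interval for each gene, in the edgeR fit with group only (black circles) and in the blocked fit (yellow squares), filled where the adjusted p is under 0.05. Ntn4 is filled in both fits, and Robo2 and Sema3e in the blocked fit, with the widest intervals for Sema3e and Sema3a.

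Levels per exon length spanned a wide range. In CPM per kilobase of exons (all annotated exons of a gene joined), the PDGFRα- level was 161 ± 15.4 for Slit3, 63.0 ± 8.84 for Ntn1 and 40.8 ± 2.12 for Sema3c. Then came Robo2 at 19.7 ± 3.55, Ntn4 at 17.6 ± 2.91 and Slit2 at 15.5 ± 2.86 CPM per kilobase, which did not differ beyond their SD from neighbour to neighbour. Robo1 at 9.73 ± 2.72 and Sema3d at 6.69 ± 1.51 followed, and Sema3e and Sema3a came last at 0.591 ± 0.486 and 0.408 ± 0.159 CPM per kilobase, within the SD of Sema3e. In PDGFRα+ cells Slit3 and Ntn1 again came first, at 189 ± 57.0 and 69.0 ± 6.93 CPM per kilobase. Sema3c and Robo2 were level there at 30.2 ± 2.79 and 30.1 ± 2.55, as were Robo1 and Slit2 at 10.9 ± 1.66 and 10.5 ± 4.996, and Ntn4 at 7.09 ± 0.38 was within the SD of Slit2. Sema3d followed at 3.97 ± 2.24, then Sema3a at 0.253 ± 0.058 and Sema3e at 0.0294 ± 0.0205 CPM per kilobase. The joined exons of Slit2 span 25.43 kb against 9.96 kb for its longest coding transcript, and on the latter length Slit2 stood at 39.5 in PDGFRα- cells, level with Robo2 at 39.0, while Slit3 and Ntn1 stayed first at 187 and 67.4.

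**Figure D3:**
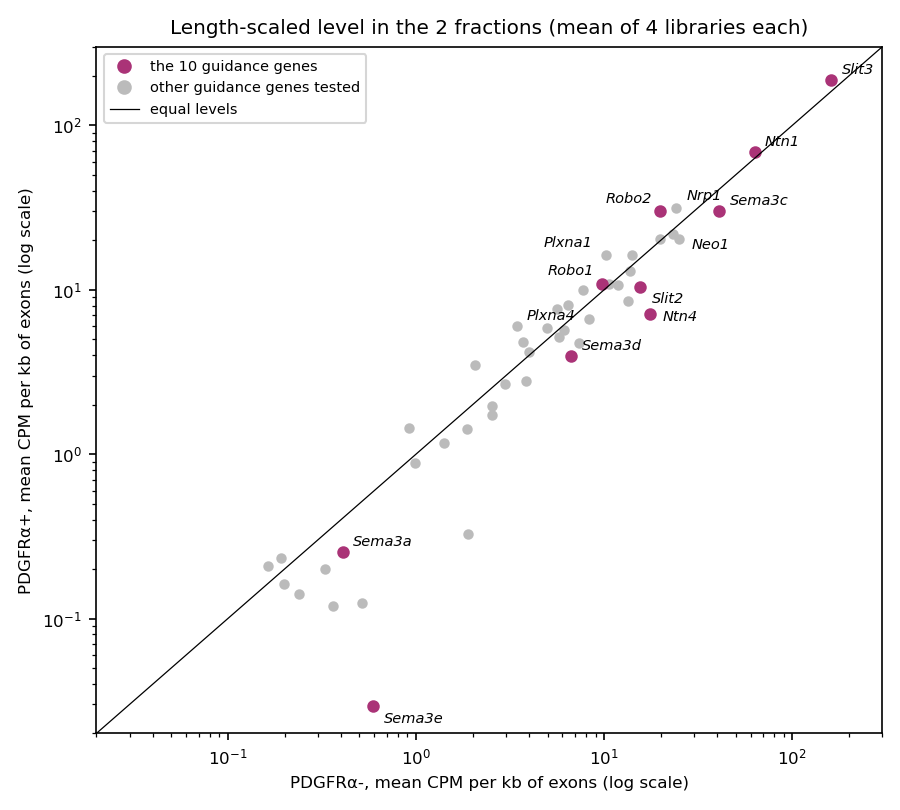
Mean CPM per kilobase of exons in PDGFRα- (horizontal axis) and PDGFRα+ libraries (vertical axis), both on log scales, for the 10 guidance genes (purple) and the other guidance genes tested (grey), with a line of equal levels. Slit3 and Ntn1 lie at the top on the line, Ntn4 lies below it and Sema3e far below it.

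The other genes of these pathways were taken as 7 lists of 44 symbols, of which 43 were found and 38 tested. None was called without the block in edgeR, DESeq2 or limma-voom. In edgeR 5 of 38 were below 0.05 before adjustment, against 1087 of 15643 over all genes tested. With the block edgeR called 2 of 38 higher, against 1.34% of all genes tested, and 0 lower, against 0.933%. DESeq2 with the block called 2 of 43 higher and 1 lower (Srgap3), against 386 and 423 of the 53801 genes of the table. That total includes genes without an adjusted p. Unblocked edgeR without the filter called 1 of 43 higher, against 167 of 29254. The median log2 fold change of the 38 genes was -0.12 without and -0.07 with the block, against -0.01 over all genes tested in each fit.

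Of 7 tested receptor genes for class 3 semaphorins, 2 were called higher with the block, against 1.34% of all genes tested. They are the same genes as the 2 of 38 above, and the list is described first because it holds both. Both encode plexins of the A class, the signalling subunits that pair with neuropilins. Plxna4 had 16.3, 47.3, 54.4 and 75.2 CPM in PDGFRα- and 40.6, 93.6, 97.1 and 107 CPM in PDGFRα+ libraries. Library 1 was lowest in each group and the groups overlapped, while each PDGFRα+ library exceeded its same-numbered partner. Its change on the log2 scale was 0.81 ± 0.45 (SE, edgeR adjusted p = 0.848) without and 0.91 ± 0.16 (0.00547) with the block. Plxna1 had 125, 86.2, 71.0 and 89.0 CPM in PDGFRα- and 148, 180, 143 and 118 CPM in PDGFRα+ libraries, where PDGFRα+ library 4 lay below PDGFRα- library 1 and the others above it. It was estimated at 0.67 ± 0.19 on the log2 scale (SE, edgeR adjusted p = 0.282) without and 0.68 ± 0.15 (0.0282) with the block. The blocked calls were lost without number 3 for Plxna4 (edgeR adjusted p = 0.0663) and without number 2 or 3 for Plxna1 (0.0798 and 0.257). Exons of Plxna1 and Plxna4 overlap antisense genes, and whether the counting used strand is not given in the sources used.

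The neuropilin gene Nrp1, with the highest level per length of the receptor list, stood at 236 ± 34.9 and 308 ± 69.2 CPM, and did not pass (log2 fold change 0.39, edgeR adjusted p = 0.736, and 0.168 with the block). Its exons overlap the microRNA gene Mir1903 on the same strand. Plxnd1, which encodes the receptor of semaphorin 3E and is named after its values were seen, stood at 146 ± 18.7 and 149 ± 23.3 CPM (log2 fold change 0.04, 95% interval -0.31 to 0.38, edgeR adjusted p = 0.995). Of the list, 6 of 7 genes had positive log2 fold changes in each fit, against 7682 (unblocked) and 7747 (blocked) of 15643 over all genes tested.

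None of 7 netrin receptor genes was called in either edgeR fit. In the unblocked fit 1 was below 0.05 before adjustment, against 1087 of 15643 over all genes tested. Neo1, which encodes neogenin and had the highest level per length of this list, had 202, 230, 219 and 219 CPM in PDGFRα- and 152, 183, 188 and 187 CPM in PDGFRα+ libraries. The groups did not overlap, but the log2 fold change of -0.29 ± 0.14 (SE) did not pass (edgeR adjusted p = 0.747, and 0.268 with the block). Dcc, named after its values were seen, was scarce at 6.77 ± 9.04 and 1.64 ± 2.14 CPM, with 20.3 CPM in PDGFRα- library 3. The other netrin genes were low as well: Ntng2 stood at 23.0 ± 10.7 and 20.5 ± 4.27 CPM (exons overlapping 6530402F18Rik on the same strand), and Ntn5 had 2 counts over all libraries.

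In the SLIT and ROBO list 0 of 5 tested genes were called in either edgeR fit. Srgap3, which encodes a GTPase-activating protein of the family that binds ROBO receptors, had 112, 146, 139 and 133 CPM in PDGFRα- and 80.0, 54.8, 83.5 and 118 CPM in PDGFRα+ libraries. It lay at the threshold with the block (log2 fold change -0.70 ± 0.17 SE, edgeR adjusted p = 0.0501) and not near it without (0.354). DESeq2 with the block called it lower (log2 fold change -0.71, adjusted p = 0.00751), edgeR with the block called it without number 4 (-0.87, adjusted p = 0.0157), and without number 2 the value was -0.46 (0.155). Its exons overlap Gm44081 on the other strand. The endothelial receptor gene Robo4, named after its values were seen, had 33.9 CPM in PDGFRα- library 4, where endothelial markers were highest, and between 0.041 and 5.38 CPM in the other libraries.

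Of the other class 3 semaphorin genes Sema3f had the highest level per length over both fractions together, though Sema3b exceeded it in PDGFRα- cells (7.36 against 6.45 CPM per kilobase). Sema3f stood at 33.5 ± 13.4 and 42.2 ± 7.54 CPM (edgeR adjusted p = 0.930, and 0.615 with the block). Sema3b, named after its values were seen, had all PDGFRα+ libraries below all PDGFRα- libraries, with 28.5 against 28.6 CPM at the closest, and did not pass (log2 fold change -0.63 ± 0.23 SE, edgeR adjusted p = 0.456, and 0.187 with the block). Of 11 tested membrane-bound or other semaphorin genes 0 were called, and Sema4c, the highest per length, stood at 62.8 ± 9.66 and 59.9 ± 10.3 CPM with exons overlapping D430040D24Rik on the other strand. Among the other plexins Plxnb2 stood at 180 ± 25.9 and 169 ± 15.6 CPM, with 0 of 3 tested genes called.

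**Figure D4:**
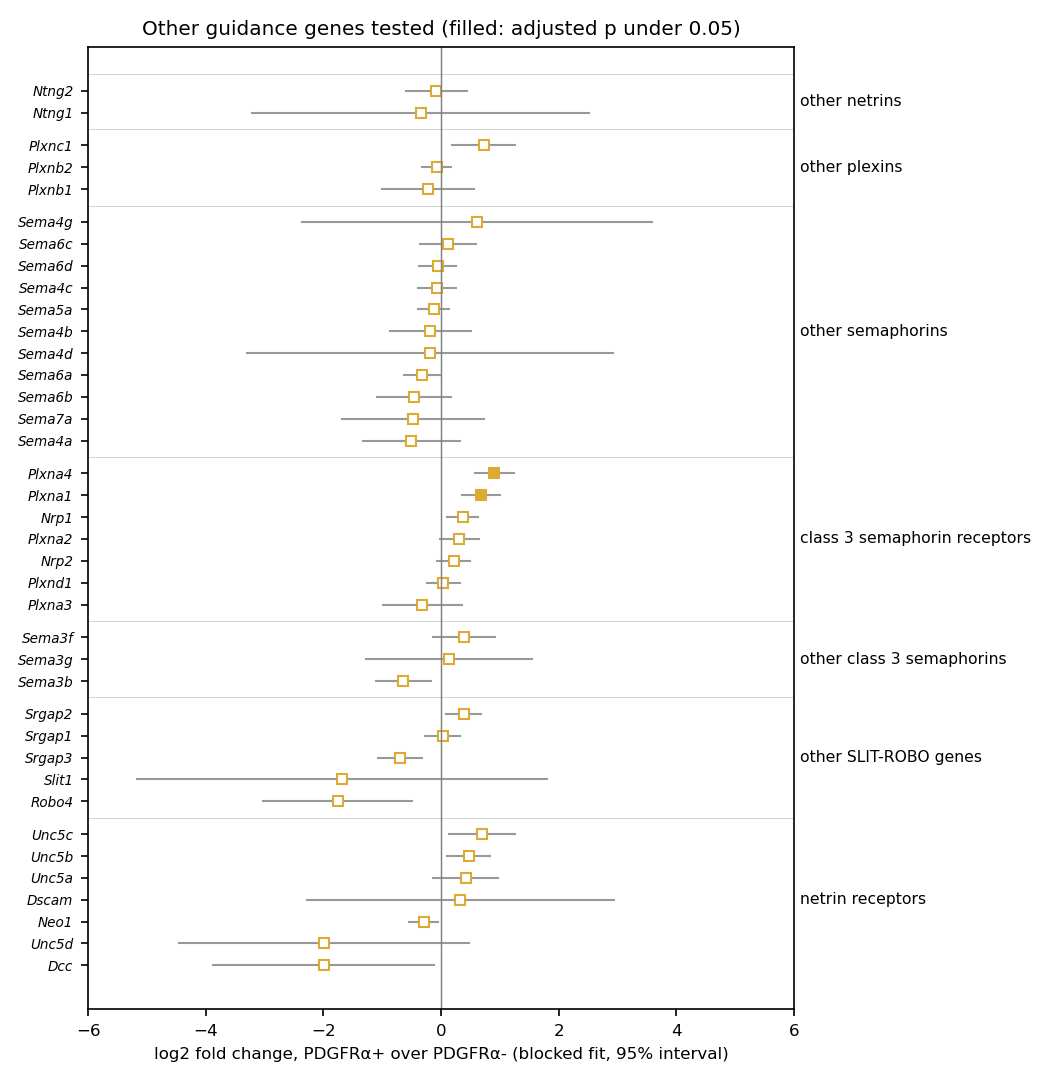
Log2 fold change of PDGFRα+ over PDGFRα- in the blocked edgeR fit (horizontal axis, bars for the unadjusted 95% interval) for the 38 other guidance genes tested, grouped by list. Only Plxna4 and Plxna1 are filled, meaning an adjusted p under 0.05, and genes with few reads, such as Slit1 and Ntng1, have intervals several units wide.

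Among 6249 genes with a mean of at least 20 CPM, those whose log2 CPM over the 8 libraries was most like that of Ntn4 were the serine protease gene Prss23 (Pearson r = 0.98), the TGF-β ligand gene Tgfb3 (0.96) and the WNT co-receptor gene Lrp6 (0.96). For Robo2 they were the cadherin gene Fat4 (0.99), the formin gene Fmnl2 (0.99) and the latrophilin gene Adgrl3 (0.98), and for Sema3e the genes Snx24 (0.97), Ago4 (0.95) and Tmem170b (0.95). These are descriptions over 8 libraries that fall into the 2 sorted groups.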

How the data were processed

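Per the labels' protocols, RNA of sorted cells went into a low-input stranded total RNA kit and was sequenced on an Illumina NextSeq. Per the submitters' processing notes, the genome build was GRCm38, and cutadapt 3.4, STAR 2.7.3a, featureCounts 2.0.1 and DESeq2 were used. As to their parameters, the strand setting and the annotation, nothing is given in the sources used here. Raw read counts per gene and library, as deposited, were used, and the authors' rounded normalized values, a score, were not tested. The deposited table also holds the authors' log2 fold change, p-value and adjusted p-value of the comparison, and a dispersion score per gene.

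The 10 genes, the 7 lists of other guidance genes and the marker lists were chosen with earlier results of these data known. Counts were tested with the edgeR 4.0.16 quasi-likelihood test (R 4.3.3, robust, TMM, filterByExpr, 15643 genes), Benjamini-Hochberg adjusted at a threshold of 0.05, in a model of the group alone. The filter, the test and a simulation with known changes were run over all genes. The fold changes are PDGFRα+ over PDGFRα-. Alternatives were limma 3.58.1 (voom), DESeq2 1.42.0, other size factors, no filter, left-out libraries and the replicate number as a block.

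The numbers did not pass the check for pairing: deviations from the group means correlated at 0.023 to 0.248 between same-numbered libraries, with 0.1 as the minimum, although for 7 of 8 libraries the closest was the one sharing its number. The blocked fit is given beside the other because the authors' deposited dispersions are matched by a DESeq2 model of number and group, to within 8.73e-04%, and not by one of group alone, where they are off by up to 7500%.

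Named by rule beyond the 10 genes were genes of the 7 lists past the threshold in either fit, the gene with the highest level per length in each list, the 3 genes most correlated (mean CPM of at least 20) with each of the 10 that was called, and Pdgfra. Outside this rule, Plxnd1, Dcc, Robo4 and Sema3b were named after their values were seen. Ntn5, Slit1 and Ntng1 were named as genes with few reads, and single genes of the marker lists were named as well. Positions, exon lengths and overlaps come from GENCODE M21 (GRCm38), which holds 53620 of 53801 identifiers. Library totals ran from 12926651 to 35115771, no libraries were identical, and the labels mention no molecular identifiers. Ntn3 was not analysed here.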

Additional observations from a re-analysis of the deposited data

Results flagged for a closer look

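Of 38 groups of 4 libraries examined (each of the 10 genes and 9 further named genes in each fraction), 1 held a library far from the others. Neo1, the neogenin gene, stood at 152 CPM in PDGFRα+ library 1, against 183 to 188 CPM in the other PDGFRα+ libraries, with a gap of 0.88 of the group's range. Chance alone flags about 1 in 20 such groups. PDGFRα+ library 1 was also the highest of its group for Slit3, at 1638 CPM.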

How the results depend on the processing

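No direction among the 10 genes changed under any alternative run. The count of called genes among the 10 was 1 as reported, and 3 with the replicate block and also without the filter on low counts. It was 4 with DESeq2, 6 with DESeq2 and the block, and 0 to 3 over the fits that leave out a library or a number. The counts of 3, 4 and 6 each hold Sema3e, which is high in the PDGFRα- libraries, so they are given as a description. Of the other guidance genes 0 were called as reported, 2 with the block, 1 without the filter and 3 with DESeq2 and the block, and 0 to 3 with a library or number left out. Over all genes the count was 38 as reported and 355 with the block, each of 15643, and 277 of 29254 without the filter. It was 272 with DESeq2 and 809 with DESeq2 and the block, of the 53801 genes of the table with or without an adjusted p. With a library or number left out it was 7 to 300, with 15696 to 16573 genes tested. Without PDGFRα- library 2 it was 12, without PDGFRα- library 3 it was 7, and without PDGFRα+ libraries 1, 2 and 3 it was 23, 15 and 10. Without PDGFRα+ library 4 it was 49. With the block it was 196, 281, 99 and 300 without numbers 1, 2, 3 and 4. The cause of these moves was not tested.

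By gene, Robo2 passed with the block (log2 fold change 0.63), without the filter (0.63), with DESeq2 (0.60) and with DESeq2 and the block (0.62), with the block and without number 2 (0.65) or 4 (0.70), and ranged from 0.50 to 0.70 with a library or number left out. Sema3e passed with the block (-4.13), without the filter (-4.26), with DESeq2 (-4.33) and with both (-4.19), with the block and without number 2 (-4.24), and ranged from -4.90 to -3.61. Sema3c passed with DESeq2 (-0.44) and with DESeq2 and the block (-0.45). Slit2 (-0.69) and Sema3d (-0.93) passed with DESeq2 and the block alone. For the 10 genes the adjusted p-values of that fit equal those of the authors' deposited table, so the 2 are not separate results. Ntn4 passed in all but the 2 left-out fits named above, from -1.38 to -1.19. Scaling to the longest coding transcript in place of all exons, chosen after seeing the data, moved 7 of the 10 levels by more than 1 SD and placed Robo2 above Sema3c and Robo1 above Ntn4 in the order over both fractions.

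The scarce genes rest on few reads: Sema3e had at most 17 counts in any PDGFRα+ library.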
